A study of Mus musculus with 45 samples.

Results

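The genes described here are 10 amino acid transporter genes, a list of names set with earlier results of these data known: Slc3a2, Slc7a5, Slc7a7, Slc7a8, Slc7a11, Slc7a2, Slc1a5, Slc38a1, Slc38a2 and Slc1a3. All 10 were found in each of the 3 deposited tables, among 55450 genes listed for slice microglia, 47643 for adult microglia and 43411 for brain tissue. The series compared inflammatory treatments of C57BL/6 mouse microglia in culture, and of microglia and brain tissue in vivo, over 45 samples in 7 groups. The titles of the in vivo samples mark them as WT. Slice microglia came from organotypic slices of neonatal brain that had been cultured for 2 weeks with PDGF added to the medium, and were sorted 24 h after medium alone (9 samples), TNF at 50 ng/mL (11 samples) or GM-CSF at 20 ng/mL (9 samples). Slices were pooled for each sample, and the sources differ on whether 3 or 2 to 3 were used. All microglia were sorted as live cells high for CD11b and intermediate for CD45. Adult microglia came from female mice aged 10 to 15 weeks, 24 h after an intraperitoneal injection of LPS at 1 mg/kg or of PBS (4 samples each). Whole brain tissue came from mice aged 10 to 15 weeks, given the same dose of LPS 24 h earlier or left untreated (4 samples each), so the brain controls had received no injection.

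Cells import and exchange amino acids through membrane carriers of the solute carrier families. Several of them work as pairs: the heavy chain encoded by Slc3a2 (CD98) brings a light chain to the cell surface, and the light chain does the transport. Slc7a5 (LAT1) and Slc7a8 (LAT2) are the light chains for large neutral amino acids such as leucine, Slc7a7 (y+LAT1) exchanges arginine and lysine for neutral amino acids, and Slc7a11 (xCT) takes up cystine and releases glutamate. The remaining genes act without that heavy chain. Slc7a2 (CAT2) carries arginine, Slc1a5 (ASCT2) exchanges glutamine and other small neutral amino acids, Slc38a1 and Slc38a2 (SNAT1 and SNAT2) import glutamine with sodium, and Slc1a3 (GLAST) clears glutamate and is best known from astrocytes. Several of these genes are known to respond when amino acids run short, through a DNA motif called the amino acid response element.

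The promoter of Slc7a11 is shown because that gene had the largest change of the 10, with TNF. RefSeq promoter windows on GRCm38.p6, from 250 bases before to 50 after a start site, had entries for 6 of the 10 genes, 10 windows in all. The stretch printed runs from base -150 to base -11 before the start of Slc7a11, at chr3:50443624-50443763 on the minus strand, and the capitals mark the core of the amino acid response element, searched as TGATGNAA on both strands.

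Slc7a11 promoter: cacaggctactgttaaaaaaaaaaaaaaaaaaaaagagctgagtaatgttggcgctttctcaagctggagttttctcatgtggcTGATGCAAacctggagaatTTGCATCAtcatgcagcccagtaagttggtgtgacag

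The stretch held 2 matches, the first on the strand of the gene and the second on the opposite strand. Of 32851 promoter windows, 3.97% held this motif at all and 0.0365% (12 windows) held it on both strands. The antioxidant response element core (TGACNNNGC, in 12.4% of windows) had no match in the Slc7a11 window and 1 in that of Slc38a2, TGACGCGGC at base -27. The GAS element (TTCNNNGAA, in 8.3% of windows) matched at base -183 of Slc7a11 and at base -96 of Slc1a3. The kappa B consensus (in 4.51% of windows) was found in 2 of the 5 windows of Slc7a7, as GGGACTTCCC at base -147 of the one and -124 of the other, which is a single genomic site counted from different start sites. The TGATGNAA core was found in 2 windows of Slc7a7 at 2 genomic sites, one at base -141 and the other at base -1 of the same window, the latter being base -243 from another start. None of these 4 motifs was found in the single windows of Slc3a2 and Slc7a8. Slc7a5, Slc7a2, Slc1a5 and Slc38a1 were without an entry. A match describes the letters and not the binding of a factor.

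The total per library was 5973364 to 9165485 counts for slice microglia and 11391564 to 14216005 counts for adult microglia. For brain tissue it was 8199863 to 10368578 counts, where the LPS libraries were the shallower ones (8199863 to 9452488 against 9641550 to 10368578). Levels are in CPM, counts scaled to the size of the library. The 8 microglial markers summed to 19781 to 26663 CPM in medium, 10504 to 13110 with TNF and 14371 to 15860 with GM-CSF, and to 55773 to 62269 CPM with PBS and 39788 to 45825 with LPS in adult microglia. Of these 8 markers, 5 were called lower with TNF (11.7% of all genes) and 4 with GM-CSF (5.96%). In adult microglia 2 were called lower (13% of all genes) and 1 higher (14.4%). Part of the lower sum was P2ry12, a microglial identity gene that fell with all 4 treatments. Its mean was 1268 CPM in medium and 142 CPM with TNF. Markers of other cells also moved in the slices. Monocyte and border macrophage markers summed to 91.4 to 215 CPM in medium and 35.6 to 108 CPM with TNF, where Mrc1 and Lyve1 fell. Cspg4 and Mag of the oligodendrocyte lineage and Kdr of endothelium rose with TNF, with sums of 161 to 263 and 173 to 343 CPM for the lineage and 7.15 to 20.4 and 12.2 to 38.1 CPM for endothelium. Neutrophil markers summed to 0.134 to 13.8 CPM in medium and 2.11 to 104 CPM with TNF, with 1 called higher. The 104 CPM was TNF replicate 6, and the next highest was replicate 8 at 22.4 CPM. With GM-CSF no marker of these 4 lists was called. The sums there were 137 to 300 CPM for monocyte and border macrophage markers and 1.08 to 40.6 CPM for neutrophil markers. They were 123 to 235 CPM for the oligodendrocyte lineage and 8.94 to 22.6 CPM for endothelium. The part of these cells in the changes of the transporter genes with either cytokine was not tested.

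Nothing in the sources ties slice samples to separate animals, so their p-values measure the spread between these samples only.

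Within a group, genes were ordered by CPM per kilobase of exon. In medium the heavy chain Slc3a2 stood first at 214 ± 16.2 CPM per kb (SD, n = 9), followed by Slc7a8 at 75.1 ± 10.1, Slc7a7 at 31.2 ± 2.76, Slc7a5 at 26.9 ± 6.55 and Slc38a2 at 18.9 ± 2.61. The neighbours Slc7a7 and Slc7a5, and Slc7a5 and Slc38a2, had overlapping ranges of mean ± SD. Slc1a5 (10.4 ± 1.62), Slc38a1 (6.13 ± 0.587) and Slc1a3 (3.93 ± 1.57) came next, and Slc7a2 (0.286 ± 0.190) and Slc7a11 (0.141 ± 0.0976) were last and within their spread. Adult microglia given PBS had the same gene in first place (Slc3a2, 130.5 ± 6.90 CPM per kb, n = 4), with Slc7a7 (58.7 ± 1.26) and Slc7a8 (57.2 ± 6.93) next and not separable by their spread. Untreated brain tissue was ordered differently: Slc1a3 stood first at 58.4 ± 3.50 CPM per kb (n = 4), then Slc3a2 at 30.1 ± 0.894, Slc7a5 at 21.6 ± 0.318 and Slc7a8 at 18.4 ± 0.355, while Slc7a7 was last at 0.489 ± 0.0318. The tables were normalized separately, so these orders are set side by side and were not tested. The length of the principal transcript in place of all exons was a choice added after seeing the data. With it, Slc3a2 stayed first in all 5 microglia groups and Slc1a3 in both brain groups, and 6 to 8 of the 10 genes kept their place. In untreated brain Slc38a1 (37.0 CPM per kb) and Slc38a2 (33.2) then stood above Slc7a5 (22.7) and Slc7a8 (22.5).

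Each treatment was compared with its control over all genes tested with edgeR's quasi-likelihood test, and calls needed both a fold change over 1.5 and an adjusted p under 0.05. With TNF, 4 of the 10 genes were called, against a background of 20.8% of 11313 genes (9.1% higher, 11.7% lower). Slc7a11, Slc7a2 and Slc7a5 rose and Slc1a3 fell. With GM-CSF, 5 of the 10 were called (background 10.8%, with 4.84% higher and 5.96% lower): Slc7a2, Slc7a11, Slc7a5 and Slc1a5 rose and Slc1a3 fell. The cytokine comparisons share the 9 medium samples and are not independent of each other.

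In adult microglia given LPS, 3 of the 9 genes tested were called (background 27.4% of 12987 genes, with 14.4% higher and 13% lower): Slc1a5 and Slc7a5 rose and Slc1a3 fell. In brain tissue given LPS, 1 of 10 was called, Slc7a5, which fell (background 3.18% of 15083 genes, with 2.63% higher and 0.55% lower). By adjusted p alone, with no fold limit, 9 of the genes passed with TNF (39.6% of all genes), 8 with GM-CSF (25.6%), 6 in adult microglia (51.6%) and 3 in brain tissue (10.2%). The median log2 fold change of the 10 genes was 0.46 with TNF and 0.30 with GM-CSF, beside -0.03 and -0.04 over all genes. It was 0.56 over the 9 genes tested in adult microglia (0.01 over all genes) and 0.04 in brain tissue (0.00 over all genes). The 3 of 9 called in adult microglia is a share near its background.

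**Figure D1:**
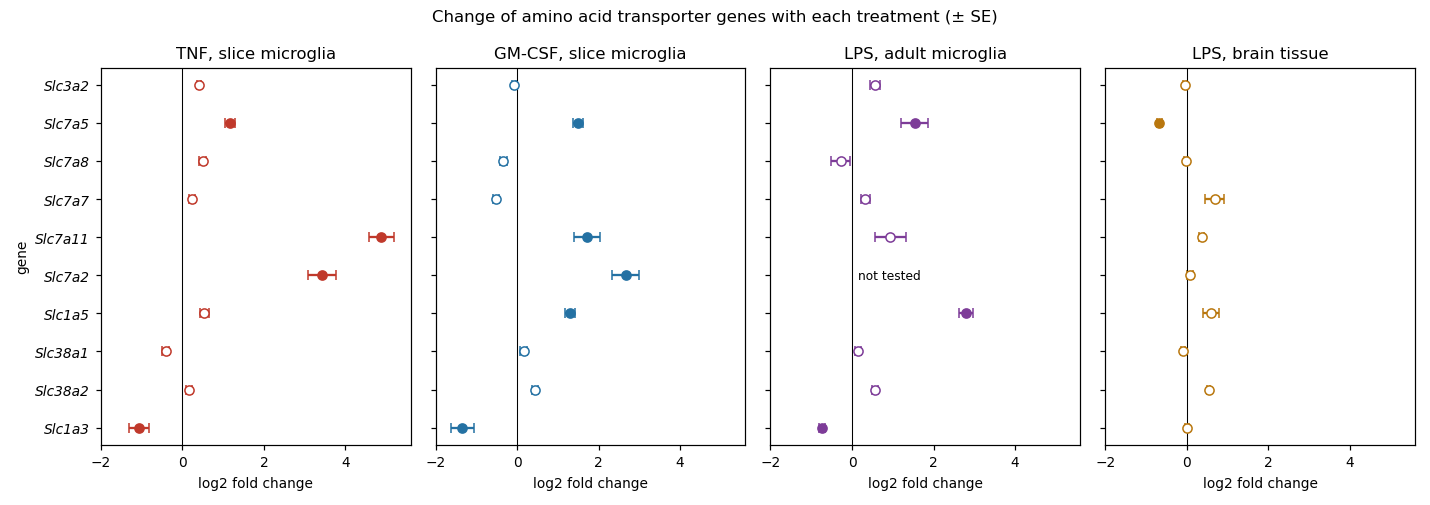
Log2 fold change (x axis) of each of the 10 genes (y axis) in 4 panels, 1 per treatment, with bars of 1 standard error; filled points were called (adjusted p under 0.05 and fold change over 1.5) and open points were not. Slc7a11 with TNF lies farthest right at 4.88, and Slc7a5 lies right of 0 in the 3 microglia panels and left of 0 at -0.67 in brain tissue.

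The heavy chain Slc3a2 (chr19:8706882-8723369, minus strand, GRCm38) was the most abundant of the 10 in microglia per length. Its lowest, median and highest levels were 684, 746 and 859 CPM in medium, 932, 1003 and 1069.5 CPM with TNF and 616, 734 and 778 CPM with GM-CSF. All 11 TNF libraries lay above every medium library, while the GM-CSF and medium libraries overlapped. The difference with TNF was 0.41 ± 0.05 (log2 ± SE, adjusted p = 5.96e-08 with edgeR), a 1.33-fold change and so below the limit for a call. With GM-CSF it was -0.08 ± 0.06 (adjusted p = 0.347), and scaling by total counts turned the sign to 0.03. In adult microglia Slc3a2 stood at 487, 470.1, 455 and 429.6 CPM in PBS replicates 1 to 4 and at 855, 567, 672 and 629 CPM in LPS replicates 1 to 4. The groups did not overlap, with a 1.48-fold difference just short of the limit (log2 0.56 ± 0.11, adjusted p = 0.00124). It passed without LPS replicate 2 (0.64), LPS replicate 4 (0.60) or PBS replicate 1 (0.59). Over all omissions of a single library the value ran from 0.43 to 0.64. Brain tissue had 102 to 109.9 CPM untreated and 98.1 to 109 CPM with LPS, overlapping (log2 -0.05 ± 0.05, adjusted p = 0.601).

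Slc7a5 (chr8:121881150-121907694, minus strand), the leucine carrier LAT1, was called in all 4 treatments. In slice microglia its lowest, median and highest levels were 70.4, 103 and 149.7 CPM in medium, 161, 234 and 277 CPM with TNF and 189.8, 253 and 379 CPM with GM-CSF. Every library of either cytokine lay above every medium library. It rose 2.26-fold with TNF (log2 1.18 ± 0.13, adjusted p = 1.8e-09) and 2.81-fold with GM-CSF (log2 1.49 ± 0.13, adjusted p = 8.47e-11). Non-overlap of this kind was seen in 10.3% of all genes with TNF and 5.6% with GM-CSF, and in 4 of the 10 transporter genes in each.

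In adult microglia Slc7a5 stood at 103, 90.1, 80.5 and 70.6 CPM in PBS replicates 1 to 4 and at 398, 139, 276 and 184 CPM in LPS replicates 1 to 4. All LPS libraries lay above all PBS libraries, with replicate 1 highest and replicate 2 lowest by a wide range. Non-overlapping groups were seen in 5 of the 9 transporter genes tested and in 47.5% of all genes. The rise was 2.90-fold (log2 1.54 ± 0.33, adjusted p = 0.00677). Replicate 1 with LPS was also the highest, and replicate 2 the lowest, for Slc3a2 and Slc7a7. Endothelial markers, 3 of 8 of them at 0 in each group, summed to 40.7 to 49.6 CPM with PBS and 15.0 to 17.4 CPM with LPS, and neutrophil markers to 32.6 to 69.8 and 1.61 to 7.66 CPM. As groups, both sums were lower with LPS, where Slc7a5 was higher. Within the PBS group the endothelial sum fell in the same order as Slc7a5 (49.6, 43.8, 43.3 and 40.7 CPM in replicates 1 to 4). The sum of the 8 microglial markers did so too (62269, 57173, 56886 and 55773 CPM). The neutrophil sum of the PBS group did not (32.6, 69.8, 46.1 and 49.1 CPM). Within the LPS group the endothelial sum did not follow Slc7a5 (17.3, 17.4, 16.8 and 15.0 CPM in replicates 1 to 4). The part of these cells in the Slc7a5 level was not tested.

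In brain tissue the direction was the opposite. Slc7a5 stood at 79.5, 81.4, 80.3 and 78.7 CPM in untreated replicates 1 to 4 and at 46.9, 50.5, 55.6 and 47.7 CPM in LPS replicates 1 to 4. The groups did not overlap, as in 5 of the 10 genes and in 16.9% of all genes, and the spread among untreated mice was only 1.18 CPM (SD, n = 4). The fall was 1.6-fold (log2 -0.67 ± 0.06, adjusted p = 1.59e-06), and 98.8% of genes tested had a higher log2 fold change.

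Brain tissue is a mixture, so that fewer cells of a type and less RNA per cell cannot be told apart. Slc7a5 is known from brain endothelium, and the 8 endothelial markers, none of them at 0, summed to 235 to 259 CPM in untreated and 247 to 327 CPM in LPS tissue, with 2 of the 8 called higher. The 8 markers of the oligodendrocyte lineage summed to 5153 to 5527 CPM untreated and 3830 to 4432 CPM with LPS, without overlap, and the 8 astrocyte markers to 4225 to 4555 and 4523 to 4846 CPM. Their part in the level of Slc7a5 was not tested.

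**Figure D2:**
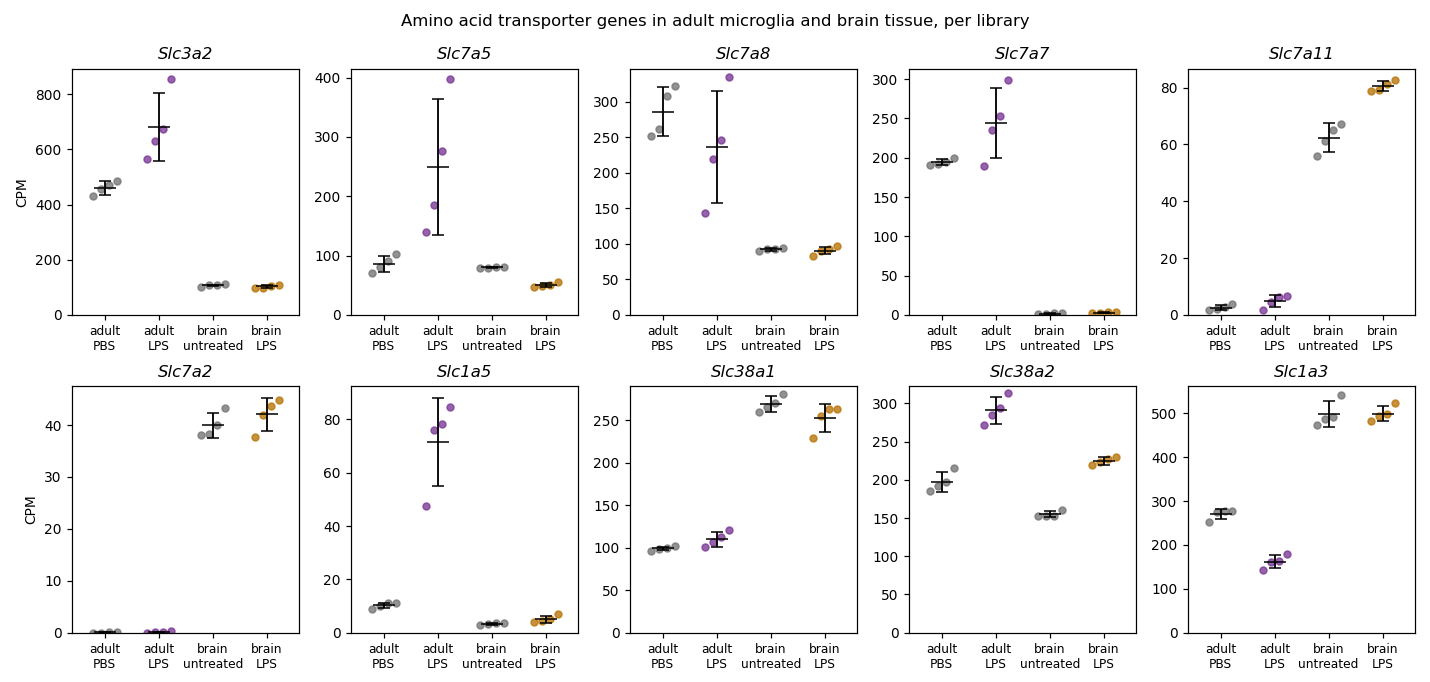
Level in CPM (y axis, from 0) of each of the 10 genes in every library of adult microglia (PBS, LPS) and brain tissue (untreated, LPS), 4 libraries a group; points are libraries and bars the mean with 1 SD. Slc1a5 and Slc7a5 are higher with LPS in every adult microglia library, and Slc7a5 is lower with LPS in every brain library.

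Slc7a8 (chr14:54722209-54781946, minus strand), the LAT2 light chain, moved apart between the cytokines. Its lowest, median and highest levels were 316, 404 and 455 CPM in medium, 432, 534 and 656 CPM with TNF and 260.2, 295 and 350.4 CPM with GM-CSF. The TNF libraries all lay above the GM-CSF libraries, and both groups overlapped medium. Against medium the difference was 0.50 ± 0.08 with TNF (log2, adjusted p = 7.28e-06, 1.42-fold) and -0.34 ± 0.09 with GM-CSF (adjusted p = 0.00325, 1.27-fold), neither of them past the fold limit. Set against each other, TNF was 1.79-fold above GM-CSF (log2 0.84 ± 0.08, adjusted p = 3.7e-10), a call. In this direct comparison 5 of the 10 genes were called, with a background of 16.2% (8.25% higher and 7.96% lower with TNF), and 9 by adjusted p alone (30.8% of all genes). The groups did not overlap for 4 of the 10 (7.93% of all genes). Of the called genes, Slc7a11, Slc7a8, Slc7a7 and Slc7a2 were higher with TNF and Slc1a5 was higher with GM-CSF.

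In vivo, Slc7a8 did not differ beyond its spread. It stood at 323, 309, 262 and 251 CPM with PBS and 335, 247, 219.6 and 144 CPM with LPS in adult microglia, overlapping (log2 -0.28 ± 0.23, adjusted p = 0.357). Brain tissue had 89.5 to 93.6 CPM untreated and 83.4 to 96.6 CPM with LPS (log2 -0.02 ± 0.05, adjusted p = 0.826).

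Slc7a7 (chr14:54369442-54417780, minus strand), the y+LAT1 light chain, was abundant in microglia and scarce in brain tissue. Its exons overlap those of Oxa1l on the opposite strand by 232 bases, and whether counting used strand is not given. In slice microglia its lowest, median and highest levels were 86.6, 104 and 116 CPM in medium, 101, 115 and 147 CPM with TNF and 63.0, 71.2 and 84.6 CPM with GM-CSF. Every GM-CSF library lay below every medium and every TNF library. The difference with GM-CSF was -0.51 ± 0.08 (log2, adjusted p = 5.35e-06), 1.43-fold and below the limit, and with TNF 0.23 ± 0.08 (adjusted p = 0.0148). TNF was 1.67-fold above GM-CSF (log2 0.74 ± 0.08, adjusted p = 7.42e-10), a call.

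In adult microglia Slc7a7 stood at 195, 190.5, 193 and 200.2 CPM with PBS and 299, 189.9, 235 and 254 CPM with LPS. Replicates 1, 3 and 4 with LPS were above all PBS libraries and replicate 2 was below them (log2 0.33 ± 0.11, adjusted p = 0.0279, 1.26-fold). In brain tissue the levels were 1.51 to 1.75 CPM untreated and 2.05 to 3.15 CPM with LPS, without overlap. The difference missed the threshold (log2 0.69 ± 0.23, adjusted p = 0.0761), which it passed without LPS replicate 3 (0.78, adjusted p = 0.0434). It ran from 0.59 to 0.78 over all omissions of a single library. The 8 microglial markers in the same brain libraries summed to 284 to 321 CPM untreated and 237 to 411 CPM with LPS.

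Slc7a11 (chr3:49892526-50443614, minus strand), the cystine and glutamate exchanger whose promoter is printed above, had the largest change among the 10. Its lowest, median and highest levels were 0.139, 1.78 and 4.48 CPM in medium (1 to 30 counts a library), 35.4, 63.5 and 79.4 CPM with TNF and 3.19, 5.32 and 12.2 CPM with GM-CSF. The TNF libraries lay far above all others, and 7 of the 9 GM-CSF libraries were above every medium library. The rise was 29.5-fold with TNF (log2 4.88 ± 0.31, adjusted p = 3.19e-15) and 3.29-fold with GM-CSF (log2 1.72 ± 0.31, adjusted p = 6.33e-05), from a level near the limit of detection. TNF stood 8.96-fold above GM-CSF (log2 3.16 ± 0.27, adjusted p = 1.08e-11). Of all genes tested, 0.292% had a higher log2 fold change with TNF.

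In adult microglia Slc7a11 remained low, at 1.94, 1.65, 2.74 and 3.75 CPM with PBS and 6.56, 1.80, 4.68 and 6.18 CPM with LPS in replicates 1 to 4. LPS replicate 2 lay among the PBS libraries, and the difference missed the threshold (log2 0.94 ± 0.38, adjusted p = 0.0606). Without that library it was 1.21 with an adjusted p of 0.00241 and was called, as it was without PBS replicate 4 (1.19, adjusted p = 0.0374). It ran from 0.74 to 1.21 over all omissions of a single library. In brain tissue the gene was well above its level in adult microglia, with 67.3, 61.3, 65.2 and 55.8 CPM untreated and 81.1, 79.1, 78.9 and 82.7 CPM with LPS. Brain tissue and adult microglia were prepared with different library kits and normalized separately, and this difference in level was not tested. The brain groups did not overlap, with a 1.29-fold difference below the limit (log2 0.37 ± 0.06, adjusted p = 0.000706).

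**Figure D3:**
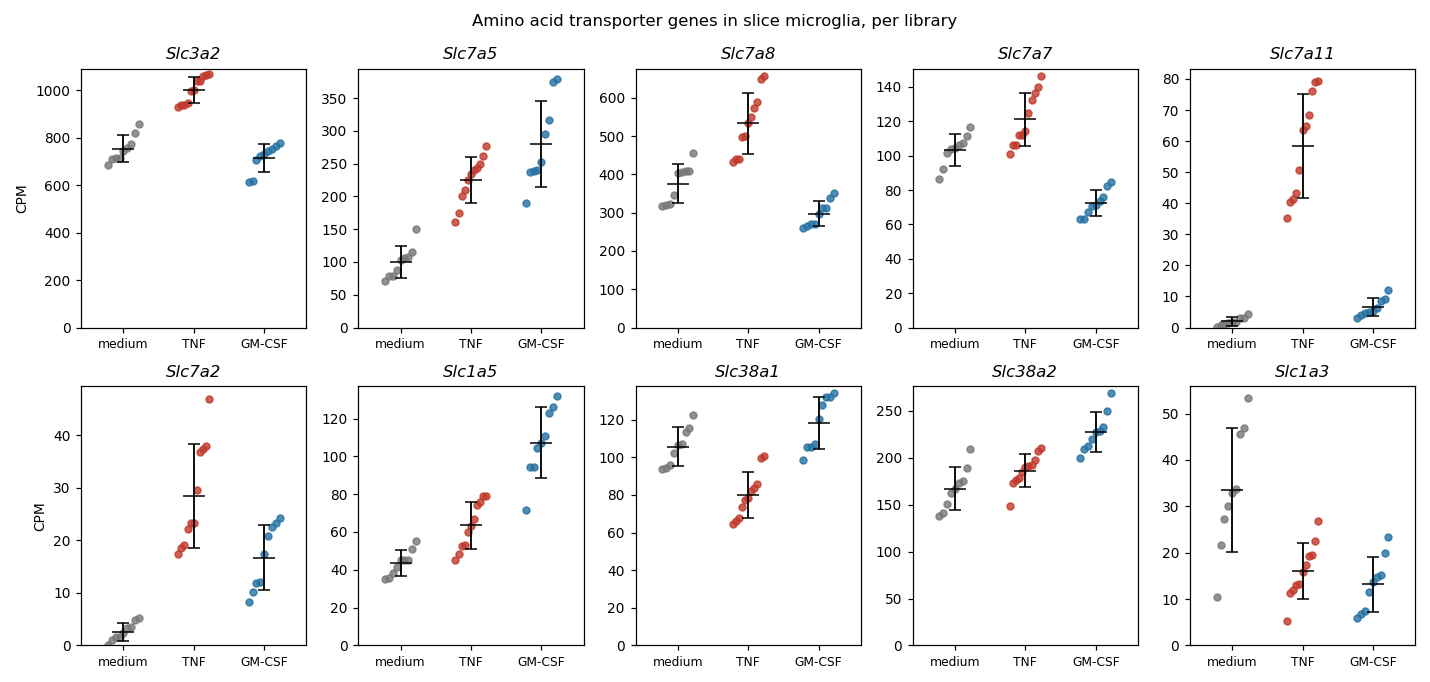
Level in CPM (y axis, from 0) of each of the 10 genes in every slice microglia library with medium (9), TNF (11) and GM-CSF (9); points are libraries and bars the mean with 1 SD. All TNF libraries of Slc7a11 lie between 35.4 and 79.4 CPM, above every medium and GM-CSF library, and all GM-CSF libraries of Slc7a7 lie below every medium library.

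Slc7a2 (chr8:40862396-40922308, plus strand), the arginine carrier CAT2, rose from a low level with both cytokines. Its exons overlap a long noncoding RNA on the opposite strand, Gm26584, by 635 bases. The lowest, median and highest levels were 0, 2.39 and 5.20 CPM in medium, 17.4, 23.4 and 46.9 CPM with TNF and 8.25, 17.4 and 24.2 CPM with GM-CSF. No cytokine-treated library overlapped with medium. In medium replicate 4 no read was counted, which allows a level of up to 0.430 CPM by counting error alone. The rise was 10.7-fold with TNF (log2 3.43 ± 0.34, adjusted p = 1.62e-10) and 6.33-fold with GM-CSF (log2 2.66 ± 0.34, adjusted p = 1.5e-07). The cytokine groups overlapped, and TNF was 1.70-fold above GM-CSF (log2 0.76 ± 0.29, adjusted p = 0.0398), a call that was lost with limma-voom (adjusted p = 0.329), with total counts, without the low-count filter, with the replicate block and within codes 1A and 1B.

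In adult microglia Slc7a2 had 0 to 2 counts with PBS and 0 to 3 counts with LPS in a library, so that no change could be detected at this depth and no test was made. Where no read was counted, the level could still be 0.211 to 0.244 CPM. Brain tissue had 38.1 to 43.4 CPM untreated and 37.7 to 44.8 CPM with LPS (log2 0.08 ± 0.07, adjusted p = 0.567). Slc7a2 was thus near 0 in adult microglia of either group and measurable in brain tissue.

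Slc1a5 (chr7:16781340-16798274, plus strand), the ASCT2 exchanger of glutamine, had the largest change in adult microglia. It stood at 9.83, 11.1, 9.02 and 11.2 CPM in PBS replicates 1 to 4 and at 76.1, 47.3, 84.6 and 78.1 CPM in LPS replicates 1 to 4. Every LPS library was far above the PBS libraries, and LPS replicate 2 was again the lowest. The rise was 6.96-fold (log2 2.80 ± 0.18, adjusted p = 9.63e-07).

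In slice microglia the lowest, median and highest levels of Slc1a5 were 34.9, 45.0 and 55.0 CPM in medium, 45.1, 63.3 and 79.2 CPM with TNF and 71.9, 107 and 132 CPM with GM-CSF. All GM-CSF libraries lay above all medium libraries, and 7 of the 11 TNF libraries did. It rose 2.46-fold with GM-CSF (log2 1.30 ± 0.12, adjusted p = 2.39e-10), while the 1.46-fold difference with TNF was below the limit (log2 0.54 ± 0.12, adjusted p = 0.000235). GM-CSF stood 1.69-fold above TNF (TNF minus GM-CSF, log2 -0.76 ± 0.11, adjusted p = 1.39e-06). In brain tissue the gene was at 2.91 to 3.66 CPM untreated and 3.89 to 6.89 CPM with LPS, without overlap (log2 0.58 ± 0.20, adjusted p = 0.0745). It was called without LPS replicate 2 (0.68, adjusted p = 0.0448), and the value ran from 0.40 to 0.68 over all omissions of a single library.

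The sodium-coupled carriers Slc38a1 (chr15:96571418-96642913) and Slc38a2 (chr15:96687392-96699730), neighbours on the minus strand, were not called against control in any treatment. Slc38a2, which is known to respond to amino acid shortage, had 215, 192, 185 and 198 CPM with PBS and 293, 285, 272 and 314 CPM with LPS in adult microglia. In brain tissue it had 161, 152, 153 and 153 CPM untreated and 223, 219, 230.4 and 227 CPM with LPS. In each table all LPS libraries lay above all controls. Both differences were just below the fold limit: 1.47-fold in adult microglia (log2 0.56 ± 0.07, adjusted p = 4.9e-05) and 1.45-fold in brain tissue (log2 0.54 ± 0.04, adjusted p = 2.54e-07). Over all omissions of a single library, the value in adult microglia ran from 0.52 to 0.60. The limit was passed there without LPS replicate 3 (0.59) or PBS replicate 1 (0.60). The difference between them was 0.01 ± 0.08 (log2 ± SE, adjusted p = 1.0), which does not show that they are equal.

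In slice microglia Slc38a2 ran from 138 over 166 to 209.8 CPM in medium, from 148 over 189.8 to 210.1 CPM with TNF and from 200.2 over 228 to 269 CPM with GM-CSF (lowest, median, highest). GM-CSF libraries were mostly above medium, 1.36-fold (log2 0.45 ± 0.08, adjusted p = 2.02e-05), and TNF libraries overlapped medium (log2 0.16 ± 0.07, adjusted p = 0.0837). Slc38a1 ran from 93.7 over 107 to 122 CPM in medium, from 64.4 over 78.3 to 101 CPM with TNF and from 98.7 over 120.3 to 134 CPM with GM-CSF. Of the 11 TNF libraries, 9 lay below every medium library (log2 -0.40 ± 0.08, adjusted p = 0.000147, 1.32-fold), and with GM-CSF the groups overlapped (log2 0.16 ± 0.09, adjusted p = 0.19). In vivo Slc38a1 missed the threshold in both tables. Adult microglia had 96.4 to 102 CPM with PBS and 100.3 to 121 CPM with LPS (log2 0.15 ± 0.07, adjusted p = 0.0921). There 3 of the 4 LPS libraries lay above every PBS library. Brain tissue had 259 to 281 CPM untreated and 229 to 263 CPM with LPS, overlapping (log2 -0.09 ± 0.05, adjusted p = 0.249).

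Slc1a3 (chr15:8634124-8710764, minus strand), the glutamate carrier GLAST, fell in all 3 treatments of microglia. Adult microglia had 253, 278, 275 and 278 CPM in PBS replicates 1 to 4 and 164, 143, 179.7 and 160.0 CPM in LPS replicates 1 to 4. The groups did not overlap, and the fall was 1.67-fold (log2 -0.74 ± 0.08, adjusted p = 1.02e-05). The 8 astrocyte markers summed to only 2.88 to 3.31 CPM with PBS and 2.80 to 5.18 CPM with LPS in these libraries, with Sox9 at 0 in all PBS libraries, so that the level of Slc1a3 stood beside near-zero astrocyte markers.

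In slice microglia Slc1a3 was much lower than in adult microglia, where mouse age, culture and sequencing run also differed, and this was not tested. Its lowest, median and highest levels were 10.5, 33.0 and 53.4 CPM in medium, 5.25, 15.8 and 26.8 CPM with TNF and 5.82, 13.6 and 23.3 CPM with GM-CSF. The groups overlapped. It fell 2.09-fold with TNF (log2 -1.06 ± 0.26, adjusted p = 0.00104) and 2.54-fold with GM-CSF (log2 -1.35 ± 0.28, adjusted p = 0.000277). The astrocyte markers summed to 35.1 to 81.0 CPM in medium, 15.1 to 88.5 CPM with TNF and 22.3 to 75.5 CPM with GM-CSF, with none of the 8 called in either comparison, and their part in the Slc1a3 level was not tested. In brain tissue Slc1a3 had 473 to 541 CPM untreated and 482 to 523 CPM with LPS, overlapping (log2 0.00 ± 0.04, adjusted p = 0.976).

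The slice samples came from 4 independent experiments, and their titles carry codes 1A, 1B, 2A and 2B, whose relation to the experiments is not given. Within codes 1A and 1B, and within codes 2A and 2B, the same numbers of transporter genes were called against medium as in all samples, 4 with TNF and 5 with GM-CSF. The log2 fold change of Slc7a11 with TNF was 4.63 and 5.14 in these subsets, that of Slc7a5 1.02 and 1.30 with TNF and 1.42 and 1.58 with GM-CSF, and that of Slc1a3 -1.13 and -1.08 with TNF and -1.16 and -1.58 with GM-CSF. In the direct comparison of the cytokines 4 and 6 genes were called.

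The genes nearest in pattern were sought over the 4 log2 fold changes against control, by Euclidean distance among 3719 genes tested in all 4 comparisons and called in at least 1, for each transporter gene called in at least 1. Nearest to Slc7a5 were Atp10a (distance 0.469), Slc6a9 (0.604) and Rrp12 (0.629). Nearest to Slc7a11 were Gbp5 (1.25), Ifit1bl1 (1.48) and Gbp6 (1.70), which lay farther off. Nearest to Slc1a5 were Dab2 (0.742), Chtf18 (0.749) and Naaa (0.783), and to Slc1a3 Arhgef10l (0.259), Slc26a11 (0.297) and Marcks (0.315). Slc7a2 was not tested in all 4 comparisons.

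The makeup of the light chains per length is a description of the mixture of partners available to Slc3a2. Over Slc7a5, Slc7a6, Slc7a7, Slc7a8, Slc7a10 and Slc7a11, the share of Slc7a5 was 18.9 ± 3.79% in medium (SD, n = 9), 27.8 ± 4.65% with TNF (n = 11) and 44.2 ± 6.32% with GM-CSF (n = 9). It was 16% ± 1.5 with PBS and 32.5 ± 6.61% with LPS in adult microglia (n = 4 each). In brain tissue it went the other way, from 31.7 ± 0.205% untreated to 24.0 ± 1.24% with LPS (n = 4 each). Slc7a8 was the largest light chain in medium (52.8 ± 4.44%) and with TNF (48.6 ± 6.09%), and Slc7a5 had the largest mean with GM-CSF, where Slc7a8 had 35.5 ± 6.08%. There Slc7a8 was above Slc7a5 in GM-CSF replicates 8 (45.0 against 34.1%) and 9 (41.3 against 38.0%), and their levels of 59.4 ± 6.63 and 75.6 ± 17.7 CPM per kb had overlapping ranges of mean ± SD.

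Slc7a10 (Asc-1), a carrier of small neutral amino acids, made up 24.5 ± 0.911% of the untreated brain light chains and was at 0% in all slice microglia. Slc7a11 reached 1.92 ± 0.559% with TNF, so that its 29.5-fold rise left it a minor light chain by transcript level. The ratio of summed light chains to Slc3a2, per length, was 0.669 ± 0.0845 in medium, 0.771 ± 0.0422 with TNF and 0.839 ± 0.0916 with GM-CSF, 1.11 ± 0.0280 with PBS and 1.02 ± 0.0941 with LPS in adult microglia, and 2.26 ± 0.0912 untreated and 1.93 ± 0.0405 with LPS in brain tissue. These shares and ratios were not tested. Both use the union exon length, which for Slc3a2 is 3529 bases against 1819 for its principal transcript. The ratios depend on that choice, and they were not computed with the principal transcript length.

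**Figure D4:**
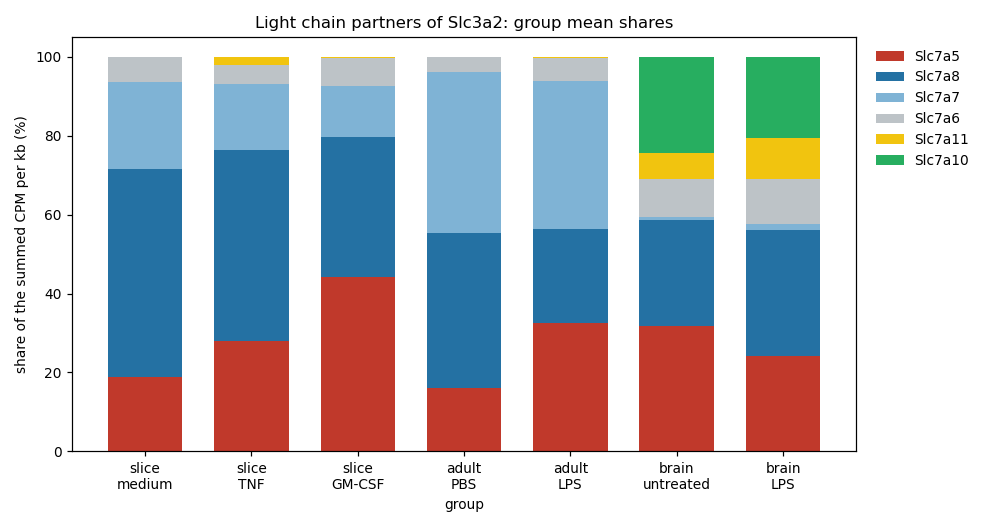
Share (y axis, percent of the summed CPM per kb) of each of 6 light chain genes in the 7 groups (x axis), as group means. The Slc7a5 share is 44.2% with GM-CSF, the largest of the slice groups, and Slc7a10 appears in the brain groups, at 24.5% untreated.

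The LPS effects in adult microglia and brain tissue were set against each other with an interaction term in a fit of the 16 in vivo samples. Tissue, library kit, sequencing run and type of control differ together between the tables and cannot be told apart. The difference was called for 4 of the 10 genes (background 19.7% of 16676 genes, with 9.1% higher and 10.6% lower). Slc1a5 (log2 2.21 ± 0.28, adjusted p = 7.03e-06), Slc7a5 (2.20 ± 0.36, adjusted p = 0.000349) and Slc3a2 (0.60 ± 0.13, adjusted p = 0.00115) were higher in adult microglia, and Slc1a3 was lower (-0.76 ± 0.10, adjusted p = 5.51e-06). For Slc3a2 the value fell below the fold limit with DESeq2 (0.57) and without LPS replicate 1 (0.48) or PBS replicate 4 (0.57) of the adult microglia. The interaction of Slc7a11 was called without LPS replicate 2 (0.83, adjusted p = 0.00476), and ran from 0.40 to 0.84 over all omissions of a single library.

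The rest of the amino acid pathway was read from lists of other genes, whose counts stand beside the same shares over all genes as above: 9.1% higher and 11.7% lower with TNF, 4.84% and 5.96% with GM-CSF, 14.4% and 13% in adult microglia and 2.63% and 0.55% in brain tissue. Of 23 genes of the amino acid response, 12 rose and none fell with TNF, among them Asns, which makes asparagine (51.2 ± 16.1 CPM in medium and 173 ± 48.2 CPM with TNF, log2 1.76 ± 0.18, adjusted p = 6.83e-10), and the transcription factor gene Cebpb (256 ± 22.2 and 764 ± 75.2 CPM, log2 1.58 ± 0.08, adjusted p = 1.2e-18). With GM-CSF 6 rose and 1 fell, with Asns (121 ± 22.1 CPM) and the serine pathway gene Shmt2 (138 ± 18.6 in medium and 312 ± 34.4 CPM) highest and Atf3 (195 ± 36.1 and 106 ± 9.96 CPM) the one that fell. In adult microglia 10 of 21 rose and 1 fell with LPS, led by Psat1, a gene of serine synthesis (21.8 ± 3.89 CPM with PBS and 100.3 ± 8.92 CPM with LPS), while Cebpg, a transcription factor gene, fell (log2 -0.88). In brain tissue 1 of 21 rose, Cebpb (2.74 CPM on average untreated and 4.56 ± 0.806 CPM with LPS). The fall of 1 gene with GM-CSF was near the share over all genes.

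The median log2 fold change of this list was 0.62 with TNF, 0.33 with GM-CSF, 0.57 in adult microglia and -0.12 in brain tissue. Of 16 genes of glutathione synthesis, which draws on cysteine, and of the NRF2 response, 8 rose and 1 fell with TNF and 0 rose and 1 fell with GM-CSF. The examples with TNF were the ferritin heavy chain Fth1 (log2 2.04 ± 0.11) and Srxn1 (1.58 ± 0.11), and the 1 that fell with both cytokines was Osgin1 (-1.15 ± 0.19 and -0.96 ± 0.20). In adult microglia 4 of 14 rose and 2 fell, and in brain tissue 0 of 15 were called. For this list the falls with GM-CSF and in adult microglia were near the shares over all genes.

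Of 14 genes of arginine, glutamine, tryptophan and branched-chain amino acid metabolism, 5 rose and 2 fell with TNF. Ass1, which rebuilds arginine from citrulline (3.82 ± 0.808 CPM in medium and 42.2 ± 9.48 CPM with TNF), and Nos2, which uses arginine to make nitric oxide (6.16 ± 3.25 and 63.6 ± 28.3 CPM), had the largest rises, beside that of the arginine carrier Slc7a2. With GM-CSF 2 rose and 1 fell, with Arg1, the arginine-cleaving enzyme (340 ± 147 and 1345 ± 495 CPM), first. In adult microglia 3 of 8 rose and 1 fell, and in brain tissue 0 of 11 were called. The falls with TNF, with GM-CSF and in adult microglia were near the shares over all genes.

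Of the other amino acid transporters tested, 4 of 20 rose and 2 fell with TNF, 2 rose and 1 fell with GM-CSF, 6 of 18 rose and 2 fell in adult microglia, and 0 of 30 were called in brain tissue. The falls with both cytokines and in adult microglia were near the shares over all genes. The glycine carrier Slc6a9 was among those that rose in all 3 treatments of microglia, with log2 fold changes of 1.44 ± 0.29, 1.27 ± 0.30 and 1.94 ± 0.36. Its levels were low, at 2.32 ± 1.13 CPM in medium, 6.32 ± 1.75 CPM with TNF and 5.63 ± 2.06 CPM with GM-CSF. In adult microglia they were 1.56 ± 0.390 CPM with PBS and 5.98 ± 3.31 CPM with LPS. The arginine carrier Slc7a1 (CAT1) rose with GM-CSF (18.5 ± 4.03 and 34.4 ± 6.32 CPM) and with LPS in adult microglia (11 ± 2.19 and 33.3 ± 12.6 CPM). Of 26 genes of amino acid sensing by mTORC1, 1 rose and 3 fell with TNF, 3 fell with GM-CSF, 7 fell in adult microglia and 0 were called in brain tissue. The 3 falls with TNF were at the share over all genes. The leucine sensor family member Sesn1 had the largest fall with TNF (123 ± 12 and 32.6 ± 9.34 CPM).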

How the data were processed

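RNA was sequenced from sorted microglia (SMART-Seq v4 and Nextera XT kits) and from brain tissue (TruSeq mRNA kit). For slice microglia the authors deposited raw counts per gene. For adult microglia and brain tissue the authors deposited expected counts, which were rounded to whole numbers: 70872 and 69680 values were not whole, and rounding changed the table totals by 0.00107% and 0.00113%. The submitters' processing notes name mm10 and, for the slice samples, STAR 2.7.0a and featureCounts of Subread 1.6.4. The aligner and counter of the other tables, and the use of strand, were not given in the sources used here. Of the brain rows, 92 named no gene, held 0 counts and were left out. Names and exon lengths came from GENCODE M21 (GRCm38), which matched 55450 of 55450, 47224 of 47643 and 42929 of 43411 identifiers.

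Each table was fitted on its own with edgeR 4.0.16 in R 4.3.3 (quasi-likelihood test, TMM scaling, all treatments of a table in a single fit), on genes past edgeR's expression filter (count 10, total 15). Genes were called at a Benjamini-Hochberg adjusted p under 0.05 over all genes tested and a fold change over 1.5. The interaction was fitted on both in vivo tables joined by gene. Levels are CPM with TMM factors, and levels per length divide them by the union exon length. A level at 0 is given the limit that 3 counts allow, which covers counting error only. Libraries of a group all differed by more than sampling noise, with a lowest chi-square per degree of freedom of 8.68, 3.73 and 1.77, and 0 pairs were identical. The fits were tested on simulated data.

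The 10 genes and the lists of other genes and markers were chosen with earlier results of these data known. All 10 genes are named. From each list the 2 called genes with the highest and the 2 with the lowest log2 fold change could be named, and for each transporter gene called the 3 nearest genes in pattern; P2ry12 and the other marker genes were named outside this rule after their values were seen. Alternatives were DESeq2 (1.42.0) size factors and its Wald test, total counts, no or a stricter count filter (30), limma-voom (limma 3.58.1), the replicate number as a block, the title codes, no fold limit and leaving out single libraries. The principal transcript length was added after seeing the data. Sequences came from RefSeq windows on GRCm38.p6 (Python 3.11.15).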

Additional observations from a re-analysis of the deposited data

Results flagged for a closer look

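Single libraries that stood apart from the rest of their group were sought gene by gene in the groups of 4 to 10 libraries, 60 in all, and not in the TNF group of 11, and 2 were found, where chance gives about 1 in 20. Slc1a3 stood at 253 CPM in PBS replicate 1 of the adult microglia, with the other 3 libraries at 275 to 278 CPM. Slc38a2 stood at 161 CPM in untreated replicate 1 of the brain tissue, with the others at 152 to 153 CPM.

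The effect of LPS differed between adult microglia and brain tissue for 4 genes, by the interaction in edgeR. The difference (adult microglia minus brain tissue, log2) was 2.20 for Slc7a5 (adjusted p = 0.000349), 2.21 for Slc1a5 (adjusted p = 7.03e-06), 0.60 for Slc3a2 (adjusted p = 0.00115) and -0.76 for Slc1a3 (adjusted p = 5.51e-06). Slc7a5 was higher with LPS in 4 of 4 adult microglia libraries and lower in 4 of 4 brain libraries.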

How the results depend on the processing

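Of 89 counts of called genes under an alternative, 80 stayed within 1.5 times the value reported. Without the fold limit the count was 9 with TNF, 8 with GM-CSF, 9 for TNF against GM-CSF, 6 in adult microglia and 3 in brain tissue. Leaving out single libraries gave 3 to 5 genes in adult microglia, 1 to 2 in brain tissue and 3 to 5 for the interaction. The count was 5 without LPS replicate 2 of the adult microglia (Slc3a2 and Slc7a11 added) and 5 without PBS replicate 1 (Slc3a2 and Slc38a2 added). In brain tissue it was 2 without LPS replicate 2 (Slc1a5, log2 0.68) or without LPS replicate 3 (Slc7a7, log2 0.78).

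Signs turned for differences near 0. Slc3a2 with GM-CSF was 0.028 with total counts. Slc1a3 in brain tissue was -0.00087 with DESeq2 size factors, -0.00903 without a filter and -0.00089 with DESeq2, and ran from -0.0214 to 0.0451 without single libraries, and Slc7a8 in brain tissue from -0.0571 to 0.0133. The interaction of Slc38a2 was -0.0217 with DESeq2 size factors, -0.0011 with total counts and -0.0218 with DESeq2, and ran from -0.0246 to 0.0568 without single libraries, and that of Slc7a2 from -0.57 to 0.74. Among the other values, 774 were unchanged. That number holds single genes that kept direction and side of the threshold. It also holds group counts of kept places by level per length that stayed within 1.5 times. Of the single genes, 17 passed the threshold newly, 10 lost it and 19 turned. Slc38a1 was called between the cytokines with total counts (-0.74), which moved the median of all genes to -0.19 there, and Slc7a7 was not (0.57). Slc7a11 in adult microglia was called with DESeq2 (adjusted p = 0.0418) and without a filter (adjusted p = 0.0244). Over all genes, GM-CSF called 785 genes within codes 2A and 2B and 1222 in all samples. Causes were not tested.

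Titles of the slice samples carry another running number after the code, which was not used to match or block samples. The sources do not say whether the replicate numbers pair the samples, and the values that follow do not settle it. Correlations of same-numbered deviations were 0.02 to 0.40 (GM-CSF and medium), -0.16 to 0.31 (TNF and GM-CSF), 0.10 to 0.44 (TNF and medium), -0.09 to 0.12 (adult microglia) and -0.25 to 0.02 (brain tissue), and 2 of 9, 1 of 9, 4 of 9, 1 of 4 and 0 of 4 samples matched their own number best. With the replicate block the counts were 5 with TNF (Slc1a5 added, log2 0.60), 5 with GM-CSF, 4 between the cytokines, 4 in adult microglia (Slc7a11 added, adjusted p = 0.0327), 1 in brain tissue and 4 for the interaction. By level per length, 6 genes of untreated brain kept their place with the principal transcript length. Depth limits Slc7a2 in adult microglia and Slc7a11 in medium.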
